A study of Mus musculus with 18 samples.

Results

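The 36 genes described here encode the glucose transporters and enzymes of glycolysis, the lactate branch and flux regulators of that pathway, hypoxia-inducible factor 1 alpha with 2 of its prolyl hydroxylases, and genes that respond to low oxygen. They were taken by symbol from the 52506 genes listed in all 3 count tables of the series, and all 36 were found. Glucose uptake and the glycolytic enzymes made up 17 of them, the lactate branch and flux regulators 5, Hif1a and the hydroxylases 3, and the hypoxia response genes 11. The rule that names them uses no measured value, but the list was drawn up with earlier results of these data known.

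The 18 RNA-seq libraries were made from double negative T cells, which lack CD4 and CD8, after their conversion from mouse CD4+ T cells taken from spleen and lymph node of wild type animals. Anti-CD3/CD28 antibody was given in each of the 6 groups, and 3 libraries a group formed 3 separate count tables. In the first set WTATPgs cells had received 400 µM ATPgs, an ATP analogue described as non-hydrolysable, for 6 h, and WT cells had not. In the second set ADO cells had received 400 µM adenosine for 6 h and DNT cells had not. In the third set all cells received 250 nM of an A2a receptor (A2aR) inhibitor, and RA cells also received 400 µM adenosine for 6 h while R cells did not. The study asked what purinergic signalling does in these cells. Nothing in the labels ties replicates to separate animals or cultures, so each p-value reflects the spread among the libraries at hand, which may be technical. In bulk RNA, fewer cells of a type and less RNA per cell cannot be told apart.

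Glycolysis splits glucose into pyruvate in the cytosol, and activated T cells send much of that pyruvate to lactate even when oxygen is present. Hypoxia-inducible factor 1 is a transcription factor whose alpha subunit is marked for degradation by oxygen-dependent prolyl hydroxylases, so that it accumulates when oxygen is short, and in T cells also after antigen receptor signals. Its targets include most genes of glycolysis and genes for mitophagy, vessel growth and collagen hydroxylation, and its own hydroxylases Egln1 and Egln3. Extracellular ATP acts on P2 receptors, while adenosine acts on A2a receptors, which raise cyclic AMP in T cells.

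Total counts per library ran from 20156082 to 24331577. The 14 T cell markers summed to between 3111 and 6862 CPM (counts scaled to library size with TMM factors) in each library, and Cd4, Cd8a and Cd8b1 together to between 5.56 and 23.4 CPM. Replicates varied least in the adenosine set, with a biological coefficient of variation of 2.74%, against 10.6% in the ATPgs set and 19.6% in the inhibitor set. WTATPgs replicate 3 and all 3 R libraries stood apart from their replicates. Chi-square per degree of freedom was 31.8 and 32.0 between WTATPgs replicate 3 and the other WTATPgs libraries, 53.3 between R replicates 1 and 2, and 112 and 257 between R replicate 3 and those, against at most 7.93 between any other replicates. WTATPgs replicate 3 differed from WTATPgs replicates 1 and 2 in most of the 36 genes. In R replicate 3, the 13 mitochondrially encoded genes summed to 87294 CPM and 30 ribosomal protein genes to 137090.5 CPM, against 44978 and 35311 CPM and 89604 and 67882 CPM in R replicates 1 and 2. The TMM factor was 0.597 in R replicate 3, against 0.774 and 0.846 in R replicates 1 and 2. Counts are divided by this factor, so a lower one raises every CPM of the library, and these sums are not shares of its counts.

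The levels of the 36 genes covered a wide range, with the abundant glycolytic enzymes and lactate dehydrogenase at the top. Per kilobase of summed exon length, Ldha, which encodes the A subunit of lactate dehydrogenase, stood highest in DNT libraries at 405 ± 3.49 CPM per kb (SD, n = 3), followed by the phosphoglycerate kinase gene Pgk1 at 338 ± 0.586 CPM per kb. The enolase gene Eno1 at 239.7 ± 3.29, the pyruvate kinase gene Pkm at 234 ± 1.57 and the aldolase gene Aldoa at 232 ± 0.674 CPM per kb came next. In WT libraries Pgk1 stood above Ldha, at 398 ± 6.36 and 363 ± 5.70 CPM per kb. Hif1a, at 47.96 ± 0.719 CPM per kb in DNT libraries, did not differ from Gapdh, at 47.01 ± 0.968, beyond their spread. The lowest 3 were Mxi1 at 0.792 ± 0.143, Pfkfb4 at 0.424 ± 0.0800 and the neuronal enolase gene Eno2 at 0.143 ± 0.0444 CPM per kb. Eno2 fell below the count filter in the inhibitor set and was not tested there, so 36, 36 and 35 genes were tested in the 3 sets. In 18 of the 36 the gene overlaps another annotated gene, and in 8 (Pfkm, Pfkp, Aldoa, Tpi1, Gapdh, Hif1a, Ankrd37 and Mxi1) that neighbour is protein coding. Whether counting used the strand is not given in the sources used here, so reads of such pairs may be shared. Gapdh also has many processed copies in the mouse genome, and Bnip3l has a named copy that held 9.73% of their joint CPM.

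**Figure D1:**
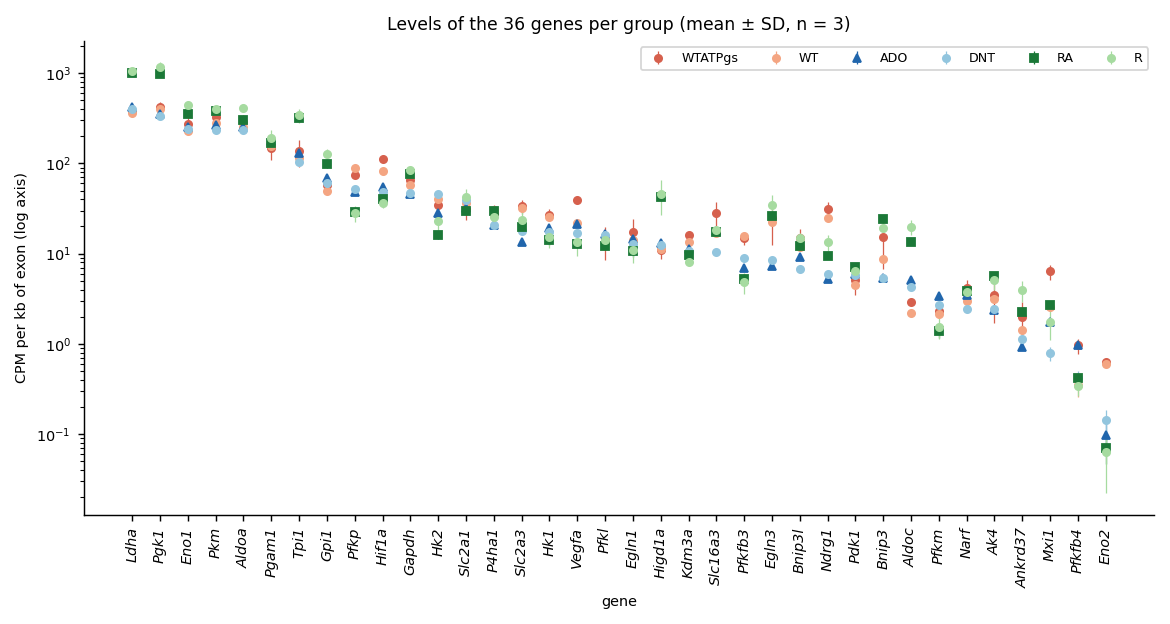
Mean CPM per kilobase of exon (log axis) of the 36 genes in the 6 groups, ordered by the DNT mean, with bars for the SD of 3 libraries. Ldha, Pgk1, Eno1, Pkm and Aldoa lead and Eno2 is lowest, at 0.143 ± 0.0444 CPM per kb in DNT libraries.

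ATPgs raised 9 of the 36 genes and lowered 2 (edgeR quasi-likelihood test, adjusted p under 0.05 over all genes tested). Over all 15124 genes tested 17.7% rose and 19.4% fell. The 2 falls became 12 of 36 without WTATPgs replicate 3, where 26.9% of all genes tested fell. The 9 were Mxi1, Pfkfb4, Vegfa, Narf, Aldoc, Hif1a, Kdm3a, Pkm and Gapdh, and the 2 were Hk2 and Pfkp. The median log2 fold change was 0.20 over the 36 genes and -0.0006 over all genes tested. In 15 members every WTATPgs library lay above every WT library, against 23.6% of all genes, and in 2 every WTATPgs library lay below, against 27.5%.

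Among the hypoxia response genes, Mxi1 (chr19:53310518-53375810, GRCm38, GENCODE M21), which encodes a repressor that competes with Myc for its partner Max, moved most. Its level was 40.3, 37.1 and 52.6 CPM in the WTATPgs libraries, against 17.3, 18.3 and 16.7 CPM in the WT libraries. The groups did not overlap, and the log2 fold change was 1.33 ± 0.12 (SE; adjusted p = 0.00021, edgeR). Vegfa (chr17:46016993-46032369), the vessel growth factor, had 176, 178 and 151 CPM in WTATPgs libraries, against 91.03, 100.1 and 93.2 CPM in WT libraries. Its 3 WTATPgs libraries all lay well above WT, with a log2 fold change of 0.84 ± 0.07 (adjusted p = 0.0001, edgeR). Narf, which encodes a nuclear protein that binds prelamin A, had 17.9, 17.1 and 25.4 CPM in WTATPgs libraries, against 15.4, 14.03 and 13.6 CPM in WT libraries, and rose by 0.50 ± 0.15 on the log2 scale. Kdm3a, a histone H3 lysine demethylase, averaged 133 ± 8.76 CPM in WTATPgs and 111 ± 3.62 CPM in WT libraries (SD, n = 3 each). Its log2 fold change was 0.27 ± 0.05. The other 7 of the 11 hypoxia response genes did not pass the test.

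Hif1a itself (chr12:73901375-73947530) had 645, 631 and 683 CPM in WTATPgs libraries, against 489.5, 489 and 491 CPM in WT libraries. The WT values lay within 3 CPM of each other and every WTATPgs value was above them, with a log2 fold change of 0.42 ± 0.03 (adjusted p = 4.28e-05, edgeR). Neither hydroxylase gene passed. Egln3 had 47.2, 46.7 and 104 CPM in WTATPgs libraries, against 60.5, 59.2 and 61.6 CPM in WT libraries: WTATPgs replicates 1 and 2 lay below every WT library and replicate 3 far above.

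In glycolysis itself the changes were small. Hk2 (chr6:82725025-82774454), the inducible hexokinase that traps glucose as its phosphate, had 198, 203 and 222 CPM in WTATPgs libraries, against 241, 242 and 236 CPM in WT libraries. All 3 WTATPgs values were below WT, with a log2 fold change of -0.20 ± 0.04. Pfkp, the platelet-type phosphofructokinase, had 986, 999 and 1024 CPM in WTATPgs libraries, against 1186, 1171 and 1198 CPM in WT libraries, a log2 fold change of -0.23 ± 0.03. Aldoc, a brain-type aldolase present here at a low level, had 9.82, 9.15 and 9.70 CPM in WTATPgs libraries, against 7.12, 6.58 and 7.75 CPM in WT libraries, and rose by 0.43 ± 0.10. Pkm and Gapdh rose by 0.25 ± 0.04 and 0.19 ± 0.05. Pfkfb4, a bifunctional enzyme that sets the level of fructose 2,6-bisphosphate, had the largest fold change of the 36. Its group means lie under the 5 CPM used to choose genes for full values and was singled out after its values were seen. Its CPM were 5.63, 4.55 and 3.89 in WTATPgs libraries, against 1.96, 1.20 and 1.92 in WT libraries, and the log2 fold change was 1.48 ± 0.23.

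WTATPgs replicate 3 stood apart from the other WTATPgs libraries. It lay above WTATPgs replicates 1 and 2 in 31 of the 36 genes (86.1%, against 46.2% of all genes) and above all 5 other libraries of the set in 29 (80.6%, against 23.0%). The median difference of replicate 3 from the mean of replicates 1 and 2 was 0.43 on the log2 scale for the 36 genes and 0.03 for all genes. Relative to the WT mean, the median member stood at -0.03 and 0.03 in WTATPgs replicates 1 and 2 and at 0.44 in replicate 3. Bnip3, which encodes a mitophagy receptor, had 24.9, 21.8 and 55.9 CPM in WTATPgs libraries, against 20.6, 18.5 and 20.1 CPM in WT libraries, and the lactate exporter gene Slc16a3 had 117, 122 and 207 CPM in WTATPgs libraries, against 89.7, 90.6 and 91.4 CPM in WT libraries. In both, replicate 3 was the highest of the 6 libraries by a wide margin. Ndrg1, a stress-induced gene, was lowest in replicate 3, at 225, 236 and 157 CPM in WTATPgs and 165, 162 and 163 CPM in WT libraries.

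Markers of other cells and of RNA composition also differed between these libraries. The 20 myeloid markers, all with counts, summed to 227, 231 and 64.5 CPM in WTATPgs libraries, against 59.9 to 64.1 CPM in WT libraries, and 7 of 17 tested rose with ATPgs. The 15 B cell markers, all with counts, summed to 163, 158 and 45.8 CPM in WTATPgs, against 89.8 to 96.2 CPM in WT libraries. Both sums were well above WT in WTATPgs replicates 1 and 2, while in replicate 3 the myeloid sum was just above the highest WT library and the B cell sum below the lowest. Of 30 ribosomal protein genes 26 fell and of 12 mitochondrially encoded genes tested 7 rose. Over all genes tested 17.7% rose and 19.4% fell. Calls of these lists in the other direction, and calls of the B cell markers, are not given here. The part of these in the changes of the 36 genes was not tested.

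Without WTATPgs replicate 3, 16 of the 36 genes rose (background 26.9%) and 12 fell (26.9%), and all 11 genes called with every library kept their call and direction. With all 6 libraries and voom quality weights, 9 fell (26.0%). The 7 added rises were Ndrg1 (0.51 ± 0.03), Slc16a3 (0.42 ± 0.03), Bnip3 (0.25 ± 0.07), Bnip3l, Eno1, Gpi1 and Aldoa, the last 4 between 0.05 and 0.12 on the log2 scale. The 10 added falls included the glucose transporter gene Slc2a1 (-0.42 ± 0.03), Egln3 (-0.35 ± 0.04), the adenylate kinase gene Ak4 (-0.35 ± 0.09), the collagen prolyl hydroxylase gene P4ha1 (-0.32 ± 0.03), the liver-type phosphofructokinase gene Pfkl (-0.32 ± 0.04) and the phosphoglycerate mutase gene Pgam1 (-0.29 ± 0.02). Slc2a3, Pgk1, Pfkfb3 and Higd1a fell less, with log2 fold changes between -0.21 and -0.06. The fall of Hk2 was not called without WTATPgs replicate 1 or without replicate 2, which left Pfkp as the only gene lowered. The rise of Narf was not called without any 1 of the WT libraries, and that of Gapdh without WT replicate 2 or 3.

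**Figure D2:**
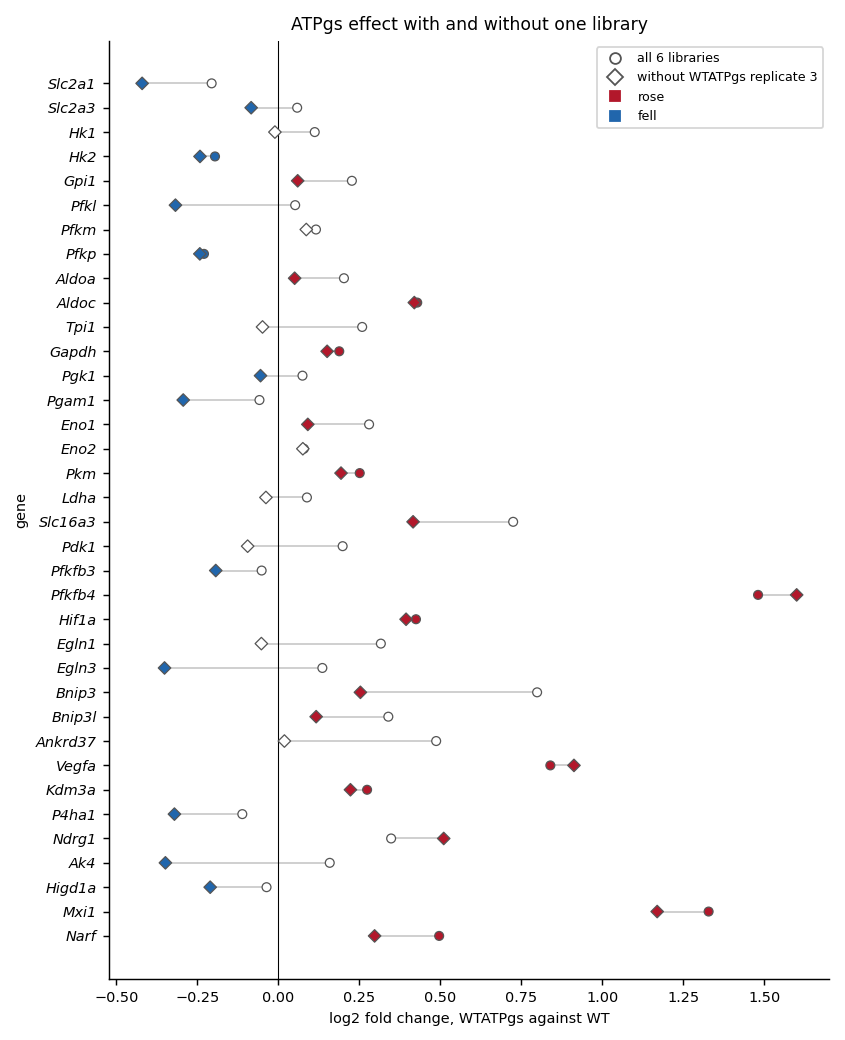
Log2 fold change of each gene with ATPgs (WTATPgs against WT) from all 6 libraries (circles) and without WTATPgs replicate 3 (diamonds), filled red where the gene rose, blue where it fell and white where it was not called. Called genes number 9 up and 2 down with all libraries and 16 up and 12 down without replicate 3, and Egln3, Ak4 and Pfkl are among the genes that cross zero.

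Adenosine raised 17 of the 36 genes and lowered 8, in the set with the smallest spread between replicates. Over all 14512 genes tested 25.5% rose and 24.6% fell. The median log2 fold change was 0.04 over the 36 genes and 0.002 over all genes tested, and most changes were small. In 19 members every ADO library lay above every DNT library (29.0% of all genes) and in 7 every ADO library lay below (26.7%). Both glucose transporter genes and the hexokinase gene Hk2 fell, while 8 of the 17 uptake and enzyme genes rose by small amounts.

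At the entry of glucose, Slc2a1 (chr4:119108711-119137983), which encodes GLUT1, had 114, 114 and 110.4 CPM in ADO libraries, against 136, 141 and 134 CPM in DNT libraries. Every ADO library was below every DNT library, and the log2 fold change was -0.29 ± 0.03 (adjusted p = 9.08e-12, edgeR). Slc2a3, which encodes GLUT3, had 94.2, 95.9 and 102 CPM in ADO libraries, against 126, 133 and 128 CPM in DNT libraries, a log2 fold change of -0.41 ± 0.03 (adjusted p = 1.02e-15, edgeR). Hk2 showed the largest fall among the 36, to 171, 168 and 168 CPM in ADO libraries, against 276, 265 and 269.6 CPM in DNT libraries. Its groups lay far apart, with a log2 fold change of -0.68 ± 0.02 (adjusted p = 5.29e-29, edgeR). Its constitutive counterpart Hk1 rose by 0.13 ± 0.03.

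Pfkfb3, the bifunctional enzyme whose kinase activity drives phosphofructokinase, fell to 51.3, 54.1 and 50.7 CPM in ADO libraries, against 69.6, 69.1 and 66.3 CPM in DNT libraries, a log2 fold change of -0.40 ± 0.04. Its relative Pfkfb4 had 4.92, 4.91 and 4.55 CPM in ADO libraries, against 2.50, 1.75 and 1.96 CPM in DNT libraries, and rose by 1.20 ± 0.16. Of the phosphofructokinases Pfkp fell (-0.14 ± 0.02), the muscle form Pfkm rose (0.32 ± 0.09) and Pfkl was not called (0.03 ± 0.03).

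Further down, Tpi1, the triosephosphate isomerase gene, had 355, 367 and 364 CPM in ADO libraries, against 293, 283 and 279.8 CPM in DNT libraries. Its rise was the largest among the 17 uptake and glycolytic enzyme genes, at 0.34 ± 0.02 (adjusted p = 3.06e-18, edgeR). Gpi1, Aldoa, Aldoc, Eno1 and Pkm rose by 0.06 to 0.24 on the log2 scale. Gapdh was called at -0.06 ± 0.03, with an adjusted p of 0.0464 from edgeR. That call was lost with DESeq2, with library size alone, with no count filter and with voom weights. Over all recomputations by edgeR, DESeq2 or voom, also with a library left out, its adjusted p ran from 0.0290 to 0.679. Ldha had 1376, 1391 and 1402 CPM in ADO libraries, against 1327, 1349 and 1345 CPM in DNT libraries: it passed the test with a log2 fold change of only 0.04 ± 0.02. Slc16a3 (chr11:120948480-120960868), which encodes the monocarboxylate transporter MCT4 that exports lactate, had 97.1, 96.7 and 92.5 CPM in ADO libraries, against 57.2, 55.8 and 53.7 CPM in DNT libraries. The rise was 0.77 ± 0.04 (adjusted p = 1.27e-23, edgeR), with no overlap between groups. Summed over the 17 uptake and enzyme genes, the level was 6844 ± 38.3 CPM in ADO and 6638 ± 16.4 CPM in DNT libraries (SD, n = 3 each).

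Of the oxygen-sensing genes Hif1a had 327, 322 and 320.5 CPM in ADO libraries, against 281, 279.7 and 288 CPM in DNT libraries, a rise of 0.19 ± 0.02. Egln1 rose (0.19 ± 0.04) and Egln3 fell (-0.22 ± 0.07), with 19.5, 20.2 and 19.05 CPM in ADO libraries, against 24.4, 22.5 and 20.96 CPM in DNT libraries. Among the hypoxia response genes 4 of 11 rose. Mxi1 had 11.7, 11.8 and 11.97 CPM in ADO libraries, against 6.46, 5.21 and 4.54 CPM in DNT libraries, a log2 fold change of 1.12 ± 0.11 (adjusted p = 8.3e-13, edgeR). Vegfa had 90.97, 93.8 and 88.9 CPM in ADO libraries, against 71.8, 73.8 and 73.9 CPM in DNT libraries, and rose by 0.31 ± 0.03. Bnip3l, a mitophagy receptor gene, had 36.4, 33.03 and 35.8 CPM in ADO libraries, against 26.5, 26.7 and 25.7 CPM in DNT libraries (0.41 ± 0.05), and Narf had 17.8, 15.1 and 17.3 CPM in ADO libraries, against 11.7, 11.4 and 12.3 CPM in DNT libraries (0.49 ± 0.08). Ndrg1 fell (-0.20 ± 0.05). Bnip3, with 12.5, 12.98 and 11.04 CPM in ADO and 11.2, 12.04 and 13.3 CPM in DNT libraries, was not called (-0.01 ± 0.09), nor were Ankrd37, Kdm3a, P4ha1, Ak4 and Higd1a. Without DNT replicate 1 Ldha and Egln3 lost their call, and without DNT replicate 2 the call was lost in 2 genes, Aldoc among them. Leaving out DNT replicate 3, ADO replicate 1 or ADO replicate 2 lost 1 call each. Marker sums moved with these changes and did not overlap between the groups. The 20 myeloid markers, 17 with a count, summed to 30.6 to 39.2 CPM in ADO and 22.4 to 24.2 CPM in DNT libraries. The 15 B cell markers, 14 with a count, summed to 42.0 to 43.7 CPM in ADO and 48.5 to 53.8 CPM in DNT libraries, and the 14 T cell markers to 3688 to 3752 CPM in ADO and 3529 to 3565 CPM in DNT libraries. Mitochondrially encoded genes summed to 13363 to 13843 CPM in ADO and 14223 to 14628 CPM in DNT libraries, and ribosomal protein genes to 26116 to 26334 CPM in ADO and 26489.6 to 26998 CPM in DNT libraries. Their part in these changes was not tested.

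**Figure D3:**
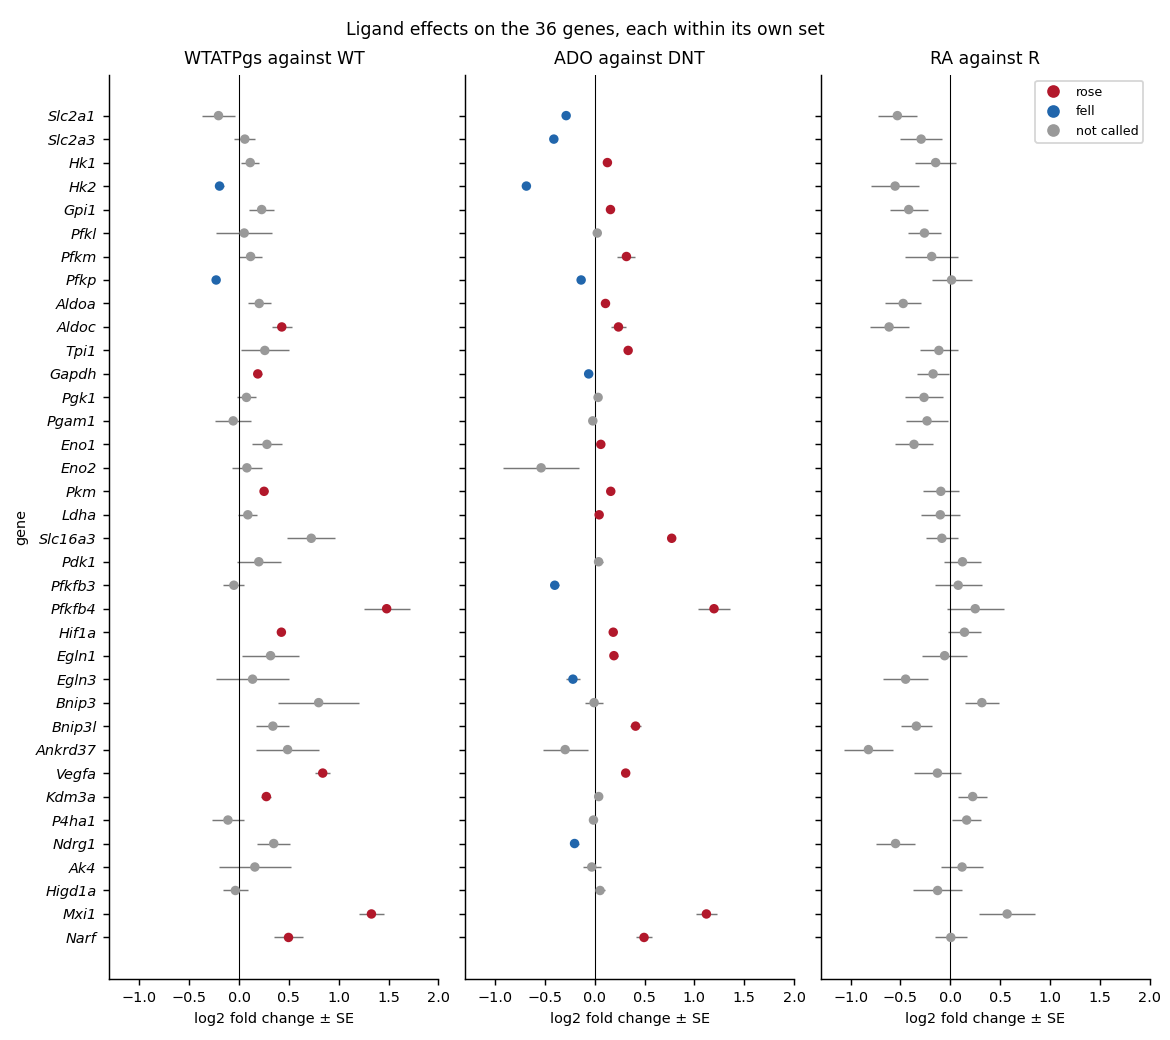
Log2 fold change with its SE for each of the 36 genes in the 3 ligand comparisons, WTATPgs against WT, ADO against DNT and RA against R, red where the gene rose, blue where it fell and grey where it was not called (Eno2 was not tested in the inhibitor set). Bars are short in the adenosine set and long in the inhibitor set, where 0 of 35 genes were called.

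The ATPgs and adenosine comparisons share no library, and 9 genes were called in the same direction in both. Of the 14053 genes tested in both, 11.5% rose with each, 13.6% fell with each and 2.01% had opposite calls. Mxi1, Pfkfb4, Vegfa, Narf, Aldoc, Hif1a and Pkm rose with each ligand, and Hk2 and Pfkp fell with each. Gapdh rose with ATPgs and fell with adenosine, and both of its calls were lost under settings named above. With adenosine alone passing the test 10 genes rose and 5 fell, Kdm3a rose with ATPgs alone passing, and 10 passed in neither. With WTATPgs replicate 3 left out, 12 genes rose and 6 fell with each ligand, the 6 being Slc2a1, Slc2a3, Hk2, Pfkp, Pfkfb3 and Egln3, and Gapdh and Ndrg1 had opposite calls. The shares over the genes tested in both were then 14.0%, 16.4% and 4.84%.

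**Figure D4:**
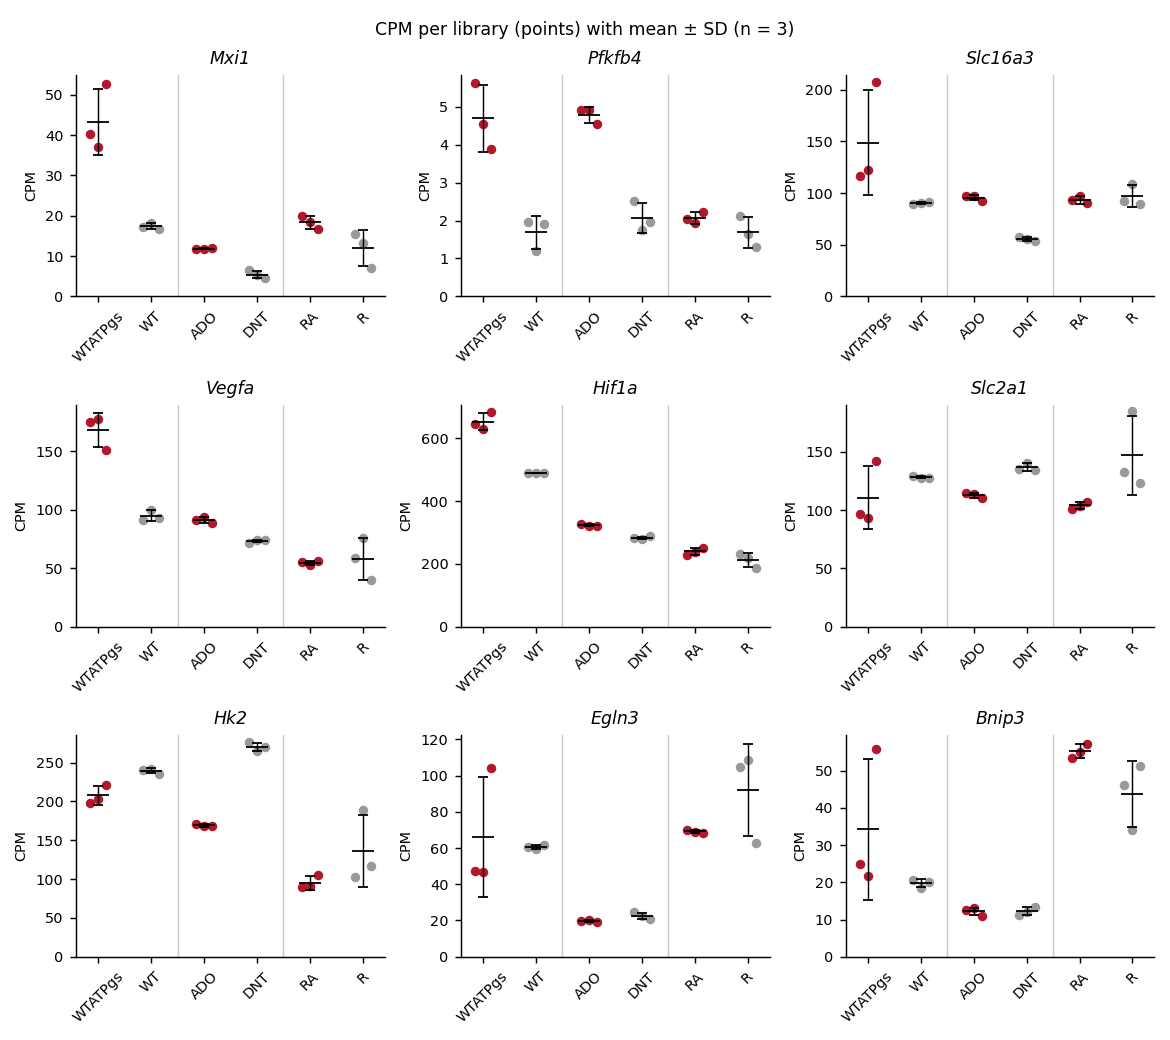
CPM of 9 genes in each of the 18 libraries (red with ATPgs or adenosine, grey without), with mean ± SD of 3 libraries and grey lines between sets. Mxi1 and Hif1a lie above and Hk2 below their controls in the ATPgs and adenosine sets, and WTATPgs replicate 3 stands alone in Egln3, Bnip3 and Slc16a3.

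RefSeq windows (GRCm38.p6) of the 250 bases before each start site were held for 33 of the 36 genes. The core of the hypoxia response element, ACGTG or GCGTG on either strand, was in at least 1 window of 30 of the 33 (90.9%). This was so in 41.5% of all genes and 60.9% of the 9990 genes tested in the adenosine set that had a window. The list was chosen to hold targets of hypoxia-inducible factor 1, so a high share is built into it and is not an independent result. Counted by window, 77.8% of 54 held it, against 38.6% of all windows and 55.2% of those of tested genes. In Vegfa the window at the start of the gene held no match, and another inside the gene span held 2. The windows of the 33 genes were also rich in G and C, with a median of 61.0% against 52.4% in all windows and 59.6% in those of tested genes. A CACGTG palindrome gives a pair of overlapping matches and is also the E-box that Myc and Max bind. A gene can have several windows, and 1 a gene is printed: Mxi1 and Slc16a3, which rose with adenosine, Hk2, which fell, Ldha, the most abundant gene per kilobase in DNT libraries, and Bnip3, not called. The printed Mxi1 window is the second of 3. The Mxi1 and Slc16a3 windows lie inside the gene spans given above, and the Ldha window lies inside its own span (chr7:46841475-46855627). The Hk2 and Bnip3 windows lie before their genes. The first Mxi1 window, at the start of the Mxi1 span, held no match and the third held 1, and a second Ldha window held 1. Capitals mark the core, each sequence runs 5′ to 3′ on the gene's strand, and Slc16a3 and Bnip3 were shortened where an annotated exon begins. They are Mxi1 at chr19:53329163-53329412 (plus strand), Slc16a3 at chr11:120948817-120949052 (plus), Hk2 at chr6:82774455-82774704 (minus), Ldha at chr7:46845554-46845803 (plus) and Bnip3 at chr7:138909520-138909756 (minus).
Mxi1: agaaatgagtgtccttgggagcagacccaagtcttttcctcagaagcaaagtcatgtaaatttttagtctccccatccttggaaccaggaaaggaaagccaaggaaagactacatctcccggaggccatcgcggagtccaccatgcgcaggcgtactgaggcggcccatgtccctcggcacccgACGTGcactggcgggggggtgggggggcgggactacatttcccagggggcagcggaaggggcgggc
Slc16a3: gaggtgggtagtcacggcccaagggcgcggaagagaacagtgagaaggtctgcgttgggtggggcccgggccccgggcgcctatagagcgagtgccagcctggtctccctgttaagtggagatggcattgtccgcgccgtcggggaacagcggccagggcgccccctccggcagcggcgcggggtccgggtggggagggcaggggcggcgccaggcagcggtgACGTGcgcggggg
Hk2: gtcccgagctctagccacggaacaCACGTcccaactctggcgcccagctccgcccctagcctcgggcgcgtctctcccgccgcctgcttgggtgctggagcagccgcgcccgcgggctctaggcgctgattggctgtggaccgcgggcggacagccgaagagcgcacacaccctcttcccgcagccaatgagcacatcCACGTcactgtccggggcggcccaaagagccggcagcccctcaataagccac
Ldha: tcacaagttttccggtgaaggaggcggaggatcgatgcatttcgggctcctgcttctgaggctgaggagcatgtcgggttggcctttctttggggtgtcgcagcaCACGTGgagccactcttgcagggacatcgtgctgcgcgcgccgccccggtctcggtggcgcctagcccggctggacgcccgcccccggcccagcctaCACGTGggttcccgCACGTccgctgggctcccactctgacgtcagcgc
Bnip3: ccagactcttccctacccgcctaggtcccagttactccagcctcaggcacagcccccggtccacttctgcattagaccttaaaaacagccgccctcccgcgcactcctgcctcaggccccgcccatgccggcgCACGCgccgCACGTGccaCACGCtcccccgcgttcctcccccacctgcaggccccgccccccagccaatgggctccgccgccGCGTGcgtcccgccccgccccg
Bnip3 and Ldha each held 5 matches, Hk2 2, and Mxi1 and the shortened Slc16a3 window 1. The Slc16a3 window held 2 before it was shortened. The cyclic AMP response element TGACGTCA was in 1 of the 33 genes, Ldha (3.03%, against 1.77% of all genes and 3.14% of those tested), and its shorter form TGACG in 7 (21.2%, against 19.8% of all genes and 30.8% of those tested). A match is a string of letters and not a measured binding site.

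With the A2a receptor inhibitor present, adenosine changed 0 of the 35 genes tested (edgeR, adjusted p under 0.05). Over all 12873 genes tested 0.287% rose and 0.855% fell at that threshold. DESeq2 also called 0 of the 35, and voom with quality weights lowered 11 (11.9% of all genes). The R libraries varied widely: Hk2 had 89.2, 90.5 and 106 CPM in RA libraries, against 103, 189.5 and 117 CPM in R libraries, and Slc2a1 had 101, 104 and 107 CPM in RA libraries, against 132, 185 and 123 CPM in R libraries. In both genes R replicate 2 was far above R replicates 1 and 3, while the RA libraries lay close together. The log2 fold changes were -0.55 ± 0.24 for Hk2 (adjusted p = 0.385, edgeR) and -0.53 ± 0.20 for Slc2a1 (adjusted p = 0.286). Hif1a had 229, 237 and 252 CPM in RA libraries, against 231, 219.7 and 187 CPM in R libraries (0.14 ± 0.17), and Ldha had 3529.6, 3382 and 3035 CPM in RA libraries, against 3681, 3025 and 3788 CPM in R libraries (-0.10 ± 0.19). Mxi1 had 19.99, 18.5 and 16.7 CPM in RA libraries, against 15.5, 13.3 and 7.12 CPM in R libraries, where all RA values were above all R values. Slc16a3, which adenosine raised in the set without inhibitor, had 92.9, 96.9 and 89.9 CPM in RA libraries, against 92.4, 109 and 89.4 CPM in R libraries, and its groups overlapped. In 4 members every RA library lay above every R library (11.6% of all genes) and in 9 every RA library lay below (10.1%).

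Without R replicate 3, 10 of the 35 genes fell (background 7.54%) and 0 rose (5.5%). They were Aldoc (-0.80 ± 0.12), Ndrg1 (-0.72 ± 0.12), Egln3 (-0.69 ± 0.11), Hk2 (-0.69 ± 0.20), Slc2a1 (-0.67 ± 0.14), Ankrd37, Aldoa, Gpi1, Eno1 and Pgam1. Without R replicate 2, 0 of the 35 rose (0.543%) or fell (1.14%). Egln3 had 70.04, 69.1 and 68.4 CPM in RA libraries, against 104, 109 and 62.6 CPM in R libraries, and without R replicate 3 its groups did not overlap. R replicate 3 is also the library with the high mitochondrial and ribosomal CPM sums and the low TMM factor given above. The myeloid markers summed to 114 to 124 CPM in RA and 165 to 213 CPM in R libraries. The part of these in the values was not tested.

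The difference between the adenosine effects with and without inhibitor was tested over 12 libraries. It was negative in 4 of the 36 genes and positive in 0, where 3.14% and 0.909% of 14965 genes were called. The adenosine effect with inhibitor minus that without was -0.87 ± 0.13 for Slc16a3 (adjusted p = 0.00298, edgeR), -0.77 ± 0.15 for Bnip3l (adjusted p = 0.0112), -0.86 ± 0.18 for Aldoc (adjusted p = 0.0207) and -0.59 ± 0.14 for Aldoa (adjusted p = 0.0355). In Slc16a3 the ligand effects were -0.08 ± 0.16 with inhibitor and 0.77 ± 0.04 without. In Bnip3l they were -0.34 and 0.41, from 46.1, 49.8 and 43.6 CPM in RA against 62.4, 49.98 and 61.3 CPM in R libraries in the inhibitor set. For Hk2 the difference was 0.12 ± 0.25 (adjusted p = 0.876, edgeR) and for Hif1a -0.06 ± 0.13, and neither passed the test. Without R replicate 2 the Hk2 difference was 0.51 ± 0.12 and was called, the only positive one (background 4.83%), and 5 genes were negative (4.7%), Tpi1 added to the 4. The inhibitor set was a separate table with a wider spread, so inhibitor and set cannot be told apart. The count of negative differences was 14 without R replicate 3 (background 9.18%, with 10.6% positive), 8 with DESeq2 (5.67%), 17 with voom weights (11.2%, with 2 positive against 11.8%), 0 with library size alone, and 2 without DNT replicate 1, 2 or 3, ADO replicate 1 or 2, or RA replicate 2 or 3, where Aldoa and Aldoc were lost.

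The difference between the ATPgs and adenosine effects was positive in 6 of the 36 genes and negative in 0, where 8.13% and 9.12% of 15788 genes were called. It was 0.53 ± 0.08 for Vegfa, 0.49 ± 0.05 for Hk2, 0.47 ± 0.14 for Slc2a3, 0.25 ± 0.06 for Gapdh, 0.24 ± 0.04 for Hif1a and 0.24 ± 0.07 for Kdm3a. Vegfa and Hif1a rose with each ligand and more with ATPgs, and Hk2 fell with each and less with ATPgs. The 2 ligands were applied in different sets, so ligand and set cannot be told apart. Without WTATPgs replicate 3 the difference was positive in 8 genes (background 14.2%) and negative in 15 (18.8%), and voom weights gave 9 negative (17.8%). All 6 genes named here were called there too, and Slc16a3 (-0.36 ± 0.05) and Tpi1 (-0.39 ± 0.03) were among the negative ones. Slc2a3 lost its call without any 1 of the WT, DNT or ADO libraries, and Kdm3a without WT replicate 2 or 3, DNT replicate 1 or 3, or ADO replicate 1 or 2.

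The balance between related enzymes was also computed. These pairs were chosen after their values were seen and get no test. Of the CPM per kb of Hk2 and Hk1 together, Hk2 held 56.4% ± 2.05 in WTATPgs and 61.5% ± 0.663 in WT libraries, 59.6% ± 0.175 in ADO and 72.1% ± 0.549 in DNT libraries, and 52.8% ± 0.779 in RA and 59.3% ± 2.24 in R libraries (SD, n = 3 each). In each set the share was lower in every library with ligand than in every library without. Pfkfb4 held 6.23% ± 1.82 of its sum with Pfkfb3 in WTATPgs and 2.19% ± 0.593 in WT libraries, and 12.5% ± 0.394 in ADO and 4.48% ± 0.759 in DNT libraries. In the inhibitor set it held 7.48% ± 0.585 in RA and 6.75% ± 1.12 in R libraries, where the groups overlapped.

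Related genes outside the 36 are read against the shares of all genes tested, of which 17.7% rose and 19.4% fell with ATPgs, 25.5% and 24.6% with adenosine, and 0.287% and 0.855% with adenosine and inhibitor. Of 24 other glycolysis genes tested, 2 rose and 8 fell with ATPgs, and 4 rose and 6 fell with adenosine, while 1 of 23 fell with adenosine and inhibitor. That gene was Pdp1, a phosphatase that activates pyruvate dehydrogenase, with 38.2, 38.4 and 38.7 CPM in RA libraries, against 77.9, 65.7 and 87.1 CPM in R libraries (-1.02 ± 0.15, adjusted p = 0.0112, edgeR). Pdp1 also fell with ATPgs (-0.70 ± 0.06) and adenosine (-0.54 ± 0.07). The ADP-dependent glucokinase gene Adpgk and Tigar, whose product lowers fructose 2,6-bisphosphate, both fell with each ligand. The log2 fold changes of Adpgk and Tigar were -0.44 ± 0.05 and -0.37 ± 0.05 with ATPgs and -0.33 ± 0.03 and -0.31 ± 0.05 with adenosine. In the pentose phosphate pathway 1 of 8 genes rose and 2 fell with ATPgs, and 2 rose and 3 fell with adenosine. Taldo1 rose and Rpia and Tkt fell with each.

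Of 11 other oxygen-sensing genes tested with ATPgs 2 rose and 1 fell, and of 10 tested with adenosine 2 rose and 2 fell. Vhl, whose product directs hydroxylated HIF alpha to degradation, rose by 0.36 ± 0.11 with ATPgs and 0.24 ± 0.06 with adenosine, and Arnt, the HIF beta subunit gene, rose with ATPgs by 0.28 ± 0.05. Of 38 other hypoxia response genes 8 rose and 3 fell with ATPgs, of 37 tested 6 rose and 15 fell with adenosine, and of 35 tested 1 rose with adenosine and inhibitor. That gene was Rora, a nuclear receptor, with 23.8, 20.2 and 23.6 CPM in RA libraries, against 11.1, 10.4 and 11.1 CPM in R libraries (1.03 ± 0.17, adjusted p = 0.0172, edgeR). Rora also rose with ATPgs (1.05 ± 0.06) and with adenosine (0.96 ± 0.05). Ddit4, an inhibitor of mTORC1, had 149, 150.1 and 152 CPM in ADO libraries, against 105, 106 and 106 CPM in DNT libraries, and rose by 0.50 ± 0.03. Car12, a carbonic anhydrase, fell with ATPgs (-1.14 ± 0.06) and adenosine (-0.46 ± 0.04), as did the transferrin receptor gene Tfrc.

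Many of the 36 genes also differed in level between the sets. In 21 of the 36 (58.3%) every R library lay above every DNT library, against 38.8% of the 11379 genes with 1 CPM or more, and in 6 (16.7%) every R library lay below, against 34.8%. The median ratio of R to DNT means was 1.63 for the 36 genes and 1.05 for all. Ldha averaged 3498 ± 413 CPM in R and 1340.4 ± 11.5 CPM in DNT libraries (SD, n = 3 each), Pgk1 2612 ± 346 and 759 ± 1.31 CPM, Tpi1 937 ± 164 and 285 ± 6.89 CPM, and Egln3 91.96 ± 25.5 and 22.6 ± 1.74 CPM. Hk2 went against this, at 137 ± 46.4 CPM in R and 270.4 ± 5.51 CPM in DNT libraries, as did Pfkp at 376 ± 77.3 and 702 ± 6.22 CPM. WT cells, which had no inhibitor, also differed from DNT cells: Ndrg1 averaged 163 ± 1.46 CPM in WT and 39.1 ± 0.841 CPM in DNT libraries, Mxi1 17.4 ± 0.806 CPM in WT and 5.40 ± 0.978 CPM in DNT libraries, and Egln3 60.4 ± 1.22 CPM in WT libraries. Ribosomal protein genes summed to 67882 to 137090.5 CPM in R and 26489.6 to 26998 CPM in DNT libraries, and mitochondrially encoded genes to 35311 to 87294 CPM in R and 14223 to 14628 CPM in DNT libraries. Myeloid markers summed to 165 to 213 CPM in R and 22.4 to 24.2 CPM in DNT libraries, and T cell markers to 5886 to 6862 CPM in R and 3529 to 3565 CPM in DNT libraries. Their part in the level differences was not tested. The TMM factors were 0.597 to 0.846 in R and 1.12 in DNT libraries, which raises R CPM relative to DNT CPM. Inhibitor and set cannot be told apart here, and the values are given without a test.

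**Figure D5:**
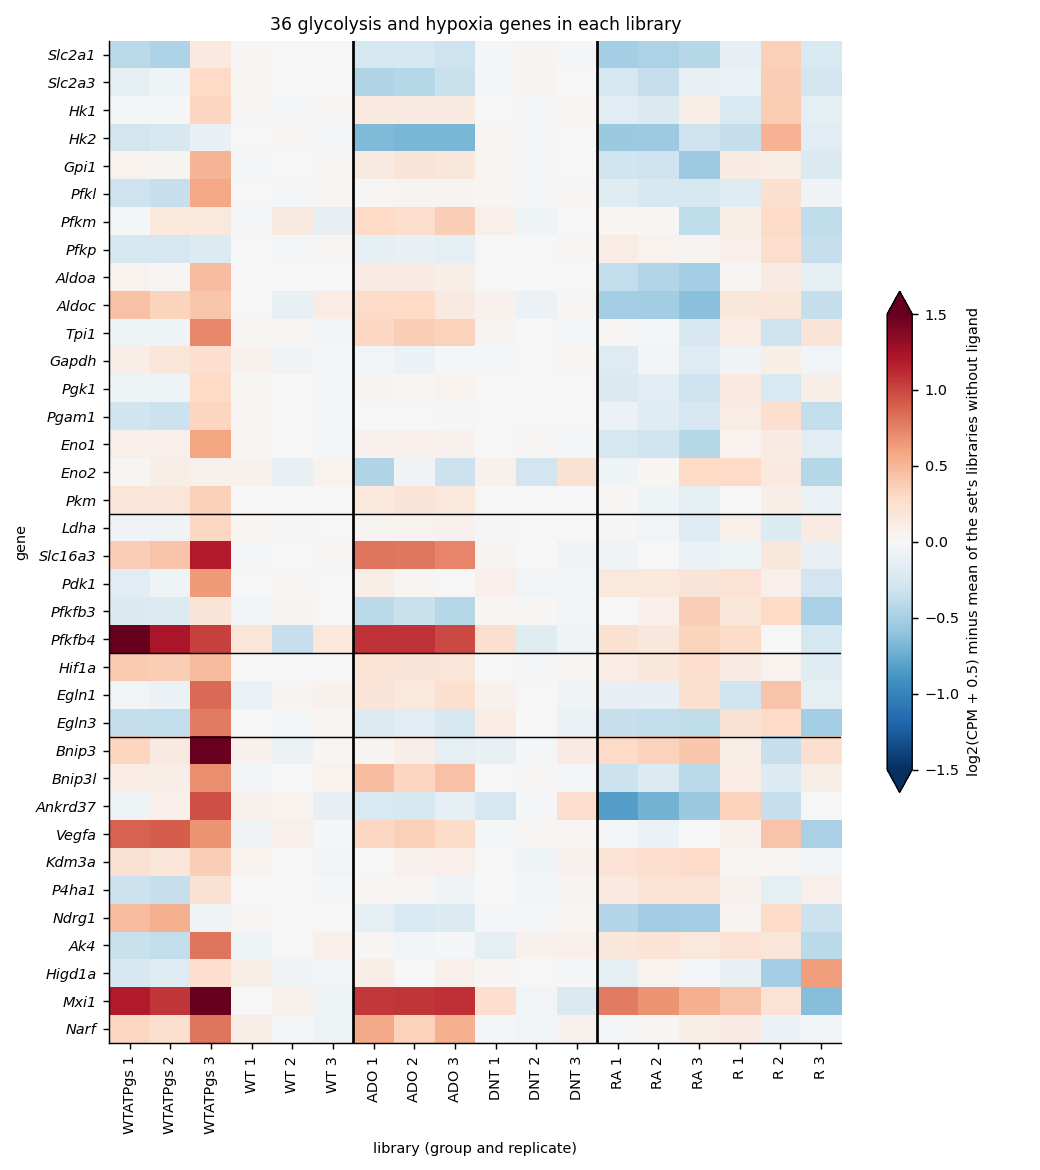
Each of the 36 genes (rows, lines between the functional groups) in each of the 18 libraries (columns, lines between sets) as log2(CPM + 0.5) minus the mean of the libraries without ligand in that set, red above and blue below, with the colour scale ending at 1.5 in each direction. WTATPgs replicate 3 is red in most rows, the ADO libraries share a pattern with Hk2 low and Mxi1, Pfkfb4 and Slc16a3 high, and the R libraries differ among themselves.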

How the data were processed

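RNA was measured in 18 libraries, 3 in each of 6 groups taken from the labels. The deposited files are 3 tables of whole-number counts per Ensembl gene that the authors made, one per set of 6 libraries. HISAT2 2.1.0 and GRCm38 are named in the submitters' processing notes, while no source used here names a counting tool, an annotation release or a strand setting. The members and gene lists were chosen with earlier results of these data known, and the promoter motif TGACGTCA and its shorter form were added to the hypoxia response element later, with values seen. Symbols, coordinates and exon lengths came from GENCODE M21, and promoter windows from RefSeq (GRCm38.p6). Aldoa has 2 Ensembl IDs and the 1 with far more counts was used.

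Each ligand was tested within its own 6 libraries by the robust quasi-likelihood test of edgeR 4.0.16 (R 4.3.3), two-sided, after filterByExpr by group and TMM scaling. Genes with a Benjamini-Hochberg adjusted p under 0.05 over all genes tested were called. Differences between effects were contrasts of 4 group means over 12 libraries with a single dispersion per gene, also where sets differed in spread. The SE is the log2 fold change divided by the square root of F. CPM used TMM factors over the 18 libraries. Values per library are given for Hif1a, Slc2a1, Hk2, Ldha, Egln3 and Bnip3 and for members among the 5 largest called rises or 5 largest called falls of a ligand comparison with a group mean of at least 5 CPM. Other genes given with values per library were chosen after their values were seen. Each result was recomputed without each library, with a replicate block, with no count filter, with RLE factors or library size alone, with DESeq2 1.42.0 and with limma 3.58.1 (voom with quality weights). On simulated data the share of false calls was above the nominal threshold in each of the 3 ligand comparisons, and fewest true changes were recovered for the difference with and without inhibitor. Replicates of a group differed by more than sampling noise in every pair (chi-square per degree of freedom 1.73 to 257), so none was merged. Each library held at least 20156082 counts. Within WT, DNT and ADO and between WTATPgs replicates 1 and 2 the ratio was 1.73 to 2.62, so counting error made up a large part of the spread there. Figures used matplotlib 3.10.9 (Python 3.11.15).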

Additional observations from a re-analysis of the deposited data

Results flagged for a closer look

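Of the 36 genes 10 differed between ligand effects by a test of the difference itself. For adenosine with against without inhibitor 4 were negative, where 3.14% of 14965 genes were negative and 0.909% positive. For ATPgs against adenosine 6 were positive, where 8.13% of 15788 genes were positive and 9.12% negative. The adenosine effect with inhibitor minus that without was -0.87 for Slc16a3, -0.86 for Aldoc, -0.77 for Bnip3l and -0.59 for Aldoa, on the log2 scale. The ATPgs effect minus the adenosine effect was 0.53 for Vegfa, 0.49 for Hk2, 0.47 for Slc2a3, 0.25 for Gapdh, 0.24 for Hif1a and 0.24 for Kdm3a. Each difference sets effects from separate tables against each other, so ligand or inhibitor and set cannot be told apart.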

How the results depend on the processing

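Adenosine kept 16 to 17 rises and 7 to 8 falls among the 36 genes when any library was left out. With all libraries 25.5% of all genes tested rose and 24.6% fell. With ATPgs, leaving out a library gave 7 to 16 rises and 1 to 12 falls, and voom with quality weights gave 9 falls. The 16 and the 12 came without WTATPgs replicate 3, where 26.9% of all genes rose and 26.9% fell. With voom weights 26.0% of all genes fell. With adenosine and inhibitor the falls ran from 0 to 10 without a library and were 11 with voom weights. Of all genes 7.54% fell without R replicate 3, which gave the 10, and 11.9% with voom weights. For the difference with and without inhibitor, leaving out a library gave 0 to 1 positive and 2 to 14 negative genes. DESeq2 gave 8 negative, library size alone 0, and voom weights 2 positive and 17 negative. Of all genes 9.18% were negative without R replicate 3, which gave the 14, and 5.67% with DESeq2. With voom weights 11.8% were positive and 11.2% negative. For ATPgs minus adenosine, leaving out a library gave 4 to 8 positive and 0 to 15 negative genes, and voom weights 9 negative. Without WTATPgs replicate 3, which gave the 8 and the 15, 14.2% of all genes were positive and 18.8% negative. With voom weights 17.8% were negative.

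No pairing by replicate number was seen. Deviations from the group means correlated by -0.11 to 0.02 between same-numbered libraries and by -0.02 to 0.10 between the others. Counting error made up a large part of the spread in several groups, so a pairing may go unseen. A replicate block gave 8 rises and 2 falls with ATPgs, 17 and 8 with adenosine, and 0 with adenosine and inhibitor. It gave 3 negative genes in the difference with and without inhibitor, and 6 positive ones in ATPgs minus adenosine. The share of all genes called with the block is not given here. Pfkl with ATPgs was -0.012 with the block.

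Some log2 fold changes that were not called in the main test changed sign, and some of them were called in the new direction. With ATPgs and voom weights Slc2a3 was -0.062, Pfkl -0.27, Tpi1 -0.0067, Pgk1 -0.032, Ldha -0.017, Pdk1 -0.057, Egln1 -0.0035, Egln3 -0.29 and Ak4 -0.29. With library size alone Higd1a was 0.013 with ATPgs. With adenosine and library size alone Pgam1 was 0.027, Bnip3 0.040, P4ha1 0.034 and Ak4 0.016, and with adenosine and inhibitor Ldha was 0.031.

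Leaving out a library with ATPgs gave ranges of -0.35 to 0.38 for Ak4, -0.052 to 0.50 for Egln1, -0.35 to 0.35 for Egln3, -0.21 to 0.067 for Higd1a, -0.011 to 0.19 for Hk1, -0.038 to 0.16 for Ldha, -0.32 to 0.0021 for P4ha1, -0.095 to 0.36 for Pdk1, -0.19 to 0.031 for Pfkfb3, -0.32 to 0.23 for Pfkl, -0.29 to 0.066 for Pgam1, -0.055 to 0.15 for Pgk1, -0.084 to 0.15 for Slc2a3 and -0.049 to 0.41 for Tpi1. Of these, Slc2a3, Pfkl, Pgk1, Egln3 and Ak4 had positive values with all libraries and were called as falls without WTATPgs replicate 3. With adenosine the ranges were -0.11 to 0.015 for Ak4, -0.064 to 0.063 for Bnip3 and -0.037 to 0.016 for P4ha1. The cause was not tested beyond the library left out. With library size alone the median of all genes was 0.09 with adenosine and inhibitor, against -0.04 with TMM factors, and with ATPgs 3226 of all genes tested rose and 2331 fell, against 2678 and 2934 with TMM factors.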
